A study of Mus musculus with 37 samples.

Results

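Wild-type (WT) mouse bone-marrow-derived macrophages were cultured toward osteoclasts, and RNA from day 4 of the culture was set against RNA from day 0, a genome-wide comparison of the macrophage that entered the culture with the cells it had become. The comparison rests on 4 of the 37 samples of the series: WT day 4, replicates 1 and 2, against WT day 0, replicates 1 and 2. They were taken by genotype, day and assay as the labels give them. All 12 RNA libraries of the series, WT and Arid1a knockout (KO) at days 0, 2 and 4 with 2 libraries each, entered the statistical fit; WT day 2 was used to describe the course, and KO day 4 and KO day 0 were used once, to test where the WT change differed from the KO change. The labels give the same cell type and the same differentiation treatment for every one of these libraries, day 0 included. They name no cytokine or dose and give no age, sex, strain or Cre driver. Whether 2 replicates are 2 cultures, 2 animals or 2 preparations of the same RNA is not stated, so the p-values rest on a spread that may be technical.

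Osteoclasts are the multinucleated cells that resorb bone. They form when macrophage precursors, kept alive by M-CSF acting on its receptor CSF1R, receive RANKL through the receptor RANK; TRAF6, NF-kB, MAP kinases and the AP-1 factor c-Fos then act with calcium signals from receptors paired to ITAM adaptors to induce the master transcription factor NFATc1. The precursors fuse, seal themselves to bone through integrins and podosomes, acidify the space beneath them with a V-ATPase and a chloride transporter, and secrete cathepsin K and other enzymes into it.

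The WT day 4 libraries held 17268653 and 17588879 counts, and the WT day 0 libraries 18603568 and 18608353. Of 23170 genes listed, 12774 had enough counts to be tested. Counts were spread over more genes at day 4: the 10 highest genes took 5.69% and 6.2% of counts in the day 4 libraries, against 15.2% and 12.7% in the day 0 libraries. The day 0 libraries resembled each other less than the day 4 libraries did, with 720 tested genes over 2-fold apart between the day 4 replicates and 1985 between the day 0 replicates. Markers of stromal cells summed to 497 and 626 TPM at day 4, against 196 TPM in day 0 replicate 1 and 1887 TPM in day 0 replicate 2. Results that rest on 1 of the day 0 libraries are given below with and without it. In these bulk samples fewer cells of a type and less RNA per cell cannot be told apart.

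Of the 12774 genes tested, 7255 (56.8%) passed an adjusted p of 0.05 (edgeR quasi-likelihood test, Benjamini-Hochberg over all tested genes), 3723 of them higher (29.1%) and 3532 lower (27.6%) at day 4. Such genes are said below to rise or fall, or to be called. At a change of 2-fold or more there were 2287 higher and 2235 lower genes, at 4-fold or more 932 and 1139, and at 16-fold or more 262 and 374. In all 7255 called genes both day 4 libraries lay on one side of both day 0 libraries, but so they did in 10084 of all tested genes (78.9%). The median log2 fold change over all tested genes was -0.04. On the scale of the deposited TPM values (transcripts scaled to gene length and library size) it moved up by 0.16, and 4212 genes were higher and 2817 lower. Gene levels below are CPM values, that is counts divided by the TMM-corrected library size, and log2 fold changes are day 4 over day 0, ± SE, n = 2 libraries a day.

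**Figure D1:**
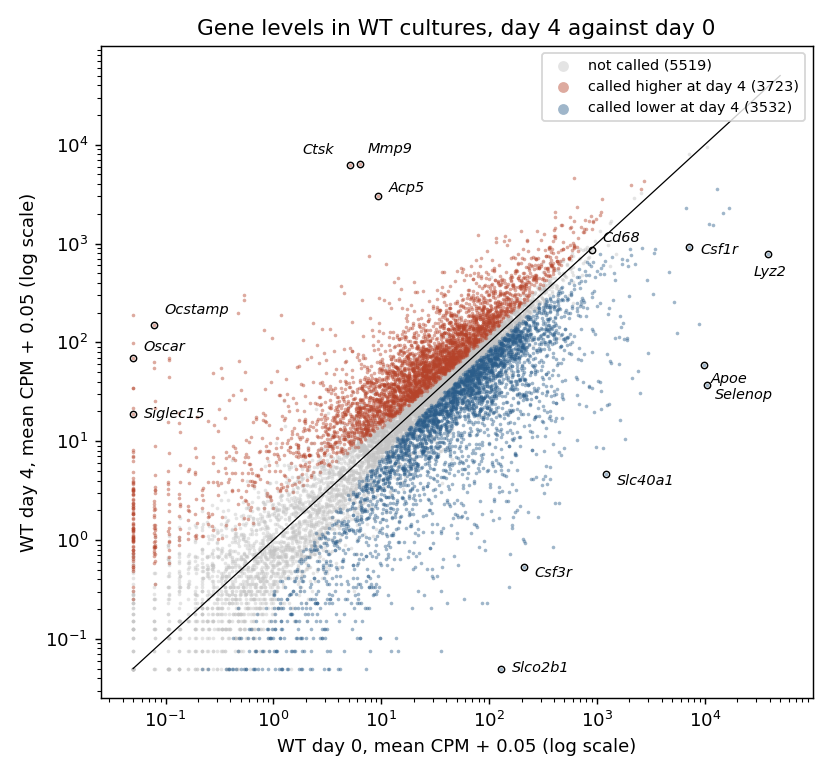
Mean CPM of each of the 12774 tested genes at WT day 4 (vertical, log scale) against WT day 0 (horizontal, log scale), with a small constant added to both. Points are coloured by call: 3723 genes lie above the diagonal as called higher and 3532 below it as called lower, with Ctsk, Mmp9 and Acp5 far above the diagonal and Lyz2, Apoe and Selenop far below.

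The labelled cell type was checked against their markers. All 10 osteoclast markers rose: Acp5, Ctsk, Mmp9, Dcstamp, Ocstamp, Atp6v0d2, Oscar, Calcr, Itgb3 and Nfatc1. The calls of Dcstamp and Atp6v0d2 did not hold in every fit, as given below. Of the 8 macrophage markers, Adgre1, Csf1r, Cd14, Lyz2, Mpeg1 and Mertk fell, while Cd68 and Cx3cr1 were not called; without day 0 replicate 1, Cx3cr1 was called lower (-1.33, adjusted p = 0.0106). Lyz2, which encodes lysozyme, still held 832 and 736 CPM at day 4, against 41320 and 36020 CPM at day 0. Markers of B cells, T and NK cells, neutrophils, dendritic cells, mast cells and osteoblasts were near 0 at both days, with sums of at most 8.68 TPM a list at day 4 and, apart from neutrophil markers at 134 TPM and T and NK cell markers at 16.8 TPM in day 0 replicate 1, at most 15.3 TPM at day 0. Markers of erythroid cells and megakaryocytes, nearly all of it Pf4, a chemokine that macrophages also make, summed to 78.0 and 53.4 TPM at day 4, against 760 and 1675 TPM at day 0, and 3 of the 4 tested fell.

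Among the 34 functional lists, which were chosen with earlier results of these data known, bone resorption genes had the highest median. Of 22 genes of this group tested, 17 rose, 0 fell and 5 were not called, with a median log2 fold change of 3.16, also with the genes at 0 counts set to their lower bounds. Their summed level was 20200 and 25670 TPM at day 4, against 1290 and 1138 TPM at day 0. Ctsk, the collagen-degrading protease cathepsin K, held 5371 and 7036 CPM at day 4, against 3.43 and 6.68 CPM at day 0 (10.26 ± 1.46, adjusted p = 0.000508). Mmp9, a gelatinase, held 5555 and 7113 CPM at day 4, against 2.73 and 9.89 CPM at day 0 (9.97 ± 0.76). Acp5, the tartrate-resistant acid phosphatase used to stain osteoclasts, held 2604 and 3483 CPM at day 4, against 14.0 and 4.42 CPM at day 0 (8.37 ± 0.88, adjusted p = 0.000109). In each of these genes the 2 day 4 libraries lay close together and far above both day 0 libraries.

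Several resorption genes had no counts in the day 0 libraries. Oscar, an osteoclast receptor that signals through an ITAM adaptor, held 57.7 and 80.7 CPM at day 4 and 0 counts in both day 0 libraries. It was at least 815-fold higher at day 4, over a floor of 3 counts for the day 0 group (adjusted p = 0.00298). Siglec15, a sialic-acid-binding receptor of osteoclasts, held 17.5 and 20.1 CPM at day 4 and 0 counts at day 0, at least 221-fold higher (adjusted p = 0.00302). Calcr, the calcitonin receptor, held 5.61 and 8.41 CPM at day 4 and 0 counts at day 0, at least 82.5-fold higher. These bounds cover counting error only.

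Genes of acid transport rose as well, most of them from a level already present at day 0. Car2, the carbonic anhydrase that supplies protons, held 81.1 and 139 CPM at day 4, against 1.1 and 0.718 CPM at day 0 (6.91 ± 1.15; not called by limma-voom, adjusted p = 0.0712). Slc4a2, the chloride-bicarbonate exchanger, held 501 and 604 CPM at day 4, against 55.2 and 60.4 CPM at day 0 (3.26 ± 0.35). Clcn7, the chloride transporter of the ruffled border, rose by 1.4 ± 0.21, and Tcirg1, the osteoclast V-ATPase subunit a3, by 0.93 ± 0.14. Ostm1, the subunit that CLCN7 needs, was not called, with 101 and 112 CPM at day 4, against 137 and 94.6 CPM at day 0 (-0.12 ± 0.19). Plekhm1, a lysosome-positioning adaptor, was not called either, with 230 and 266 CPM at day 4, against 291 and 220 CPM at day 0 (-0.04 ± 0.16). Slc9b2, a sodium-proton exchanger, held 270 and 333 CPM at day 4, against 0.64 and 0.331 CPM at day 0 (9.27 ± 1.07).

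The promoters of Ctsk, Acp5 and Oscar are shown because these genes went from near 0 to high levels together, and those of Csf3r and Tlr8 because they went the other way. Each is 300 bases, from 250 before to 50 after an annotated start, on the strand of the gene, from RefSeq (build GRCm38.p6). They lie at chr3:95498960-95499259 (plus strand, Ctsk), chr9:22130549-22130848 (minus strand, the third of 3 starts of Acp5), chr7:3616108-3616407 (minus strand, Oscar), chr4:126024409-126024708 (plus strand, Csf3r) and chrX:167264280-167264579 (minus strand, Tlr8). Capitals mark matches, on either strand, to 4 short motifs: TGANTCA (AP-1), TCANGTG (E-box), TGGAAA (NFAT) and GAGGAA (PU.1). N is any base, so TCANGTG takes in more E-boxes than those of MITF and the TFE factors. On the other strand, the E-box match in Acp5 reads TCATGTG and that in Oscar TCAGGTG.
Ctsk: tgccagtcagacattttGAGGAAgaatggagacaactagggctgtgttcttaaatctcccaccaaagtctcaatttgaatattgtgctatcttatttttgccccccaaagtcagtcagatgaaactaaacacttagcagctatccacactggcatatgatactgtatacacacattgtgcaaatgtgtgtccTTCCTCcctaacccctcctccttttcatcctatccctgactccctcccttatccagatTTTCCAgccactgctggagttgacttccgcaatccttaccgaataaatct
Acp5: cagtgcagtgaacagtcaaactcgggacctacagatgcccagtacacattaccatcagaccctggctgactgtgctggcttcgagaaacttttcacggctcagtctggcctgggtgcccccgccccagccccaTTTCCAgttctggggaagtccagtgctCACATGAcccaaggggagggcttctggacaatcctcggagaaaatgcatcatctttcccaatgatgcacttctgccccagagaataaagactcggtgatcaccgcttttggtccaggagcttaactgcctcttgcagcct
Oscar: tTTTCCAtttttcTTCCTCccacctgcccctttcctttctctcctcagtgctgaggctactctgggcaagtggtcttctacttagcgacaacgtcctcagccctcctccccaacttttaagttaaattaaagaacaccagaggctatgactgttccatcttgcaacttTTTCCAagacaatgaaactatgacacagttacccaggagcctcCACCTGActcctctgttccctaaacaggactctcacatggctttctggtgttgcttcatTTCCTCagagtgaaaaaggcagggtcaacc
Csf3r: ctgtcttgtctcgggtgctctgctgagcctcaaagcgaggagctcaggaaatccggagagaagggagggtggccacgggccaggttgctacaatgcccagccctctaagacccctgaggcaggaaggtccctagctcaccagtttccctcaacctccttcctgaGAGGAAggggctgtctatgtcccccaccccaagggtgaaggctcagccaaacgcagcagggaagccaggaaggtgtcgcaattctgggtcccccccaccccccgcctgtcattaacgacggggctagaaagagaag
Tlr8: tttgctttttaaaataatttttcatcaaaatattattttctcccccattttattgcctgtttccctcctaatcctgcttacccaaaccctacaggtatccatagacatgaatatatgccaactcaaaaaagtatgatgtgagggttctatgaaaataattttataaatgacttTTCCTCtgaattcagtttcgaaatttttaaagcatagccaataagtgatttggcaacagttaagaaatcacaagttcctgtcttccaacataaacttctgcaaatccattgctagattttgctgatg
The Ctsk window held 1 NFAT and 2 PU.1 matches, the Acp5 window 1 E-box and 1 NFAT match, and the Oscar window 1 E-box, 2 NFAT and 2 PU.1 matches; the other 2 Acp5 windows held none. The Csf3r and Tlr8 windows held 1 PU.1 match each, none held an AP-1 match, and no matches overlapped. Such matches are common: of 32851 windows of this length over 27025 genes, 7.81% held the AP-1 letters, 14.3% the E-box letters, 21.4% the NFAT letters and 28.3% the PU.1 letters. A match describes the letters and does not show that a factor was bound.

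**Figure D2:**
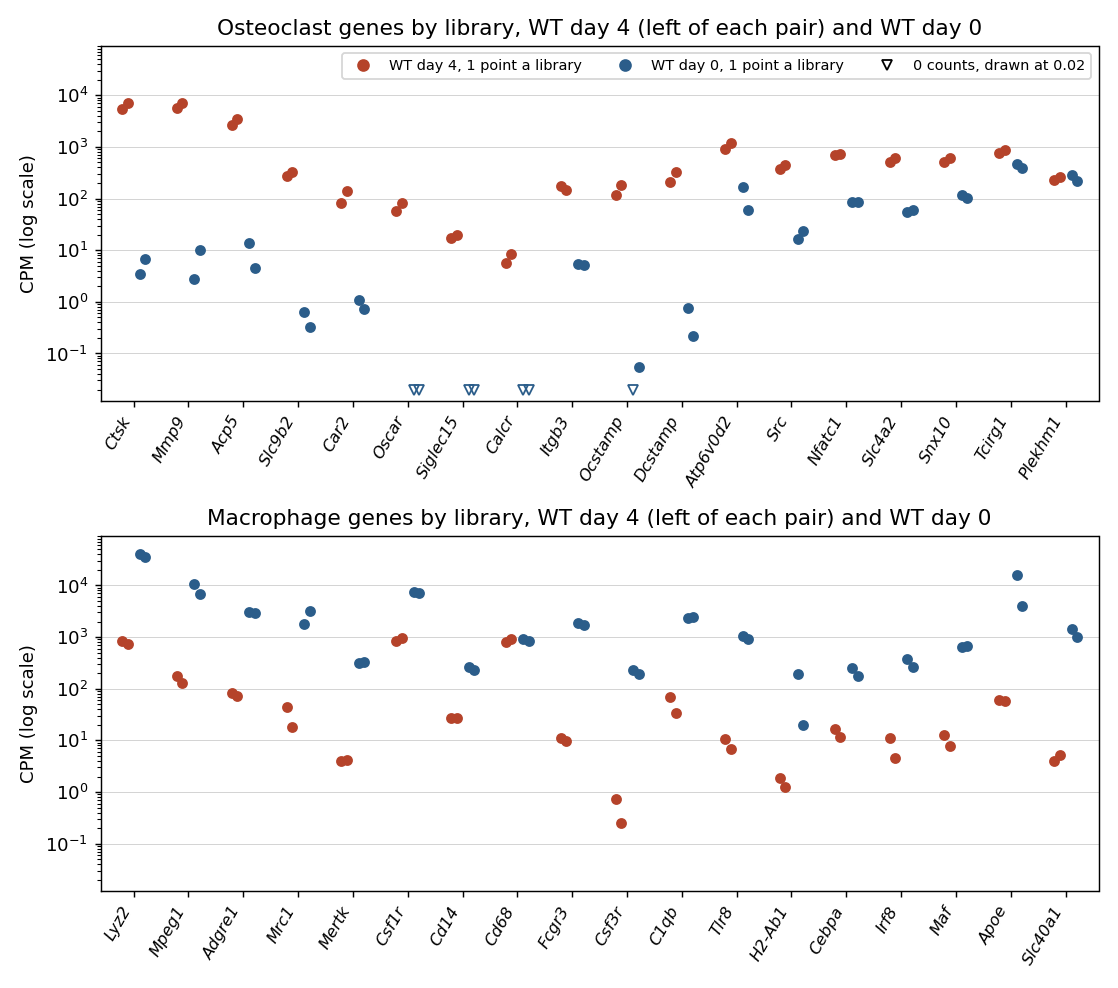
CPM in each library (log scale) of 18 osteoclast genes (upper panel) and 18 macrophage genes (lower panel), with WT day 4 left and WT day 0 right in each pair and 0 counts as open triangles. The day 4 points lie above the day 0 points for 17 of the osteoclast genes, with Plekhm1 overlapping, and below them for 17 of the macrophage genes, with Cd68 overlapping.

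Of 19 V-ATPase subunits, 14 rose, 2 fell and 3 were not called (median 1.06). The rises included subunits of the cytosolic V1 part, such as Atp6v1d (2.05 ± 0.16), Atp6v1c1 (1.92 ± 0.19), Atp6v1h (1.77 ± 0.13) and Atp6v1g1 (1.62 ± 0.17). Atp6v0d2, a membrane subunit enriched in osteoclasts and needed for their fusion in mice, held 921 and 1170 CPM at day 4, against 169 and 61.0 CPM at day 0 (3.19 ± 0.82, adjusted p = 0.0106). Its day 0 libraries were far apart, and without day 0 replicate 2 it was not called (2.63, adjusted p = 0.0585). Among the a subunits, which place the pump in different membranes, Tcirg1 rose as above while Atp6v0a1 fell: it held 29.5 and 29.8 CPM at day 4, against 206 and 217 CPM at day 0 (-2.83 ± 0.22, adjusted p = 2.06e-05).

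Of 22 cell fusion and tetraspanin genes, 11 rose, 8 fell and 3 were not called (median 0.52). That is 50% higher and 36.4% lower, against 29.1% and 27.6% of all tested genes. The count of falls was 5 without day 0 replicate 1 and 4 without day 4 replicate 2. The rises included both stimulatory transmembrane proteins of osteoclast fusion. Ocstamp held 115 and 183 CPM at day 4, against 0 and 0.0552 CPM at day 0, which was 1 count in all, a ratio of 5260 (95% interval 943 to 208000). Dcstamp, its partner transmembrane protein, held 207 and 332 CPM at day 4, against 0.756 and 0.221 CPM at day 0 (9.10 ± 1.33; not called by limma-voom, adjusted p = 0.0621). Myo10, an unconventional myosin of filopodia, rose by 3.09 ± 0.27, Sh3pxd2a, the podosome scaffold TKS5, by 1.63 ± 0.28, and Cd9, a tetraspanin, by 1.33 ± 0.20. The falls held receptors that macrophages use in uptake and giant cell formation: Cd36, a scavenger receptor, held 64.3 and 57.8 CPM at day 4, against 1308 and 1375 CPM at day 0 (-4.46 ± 0.28), Trem2 fell by 3.54 and the tetraspanin Cd81 by 2.94 on the log2 scale.

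Of 30 transcription factors of osteoclast formation, 14 rose, 9 fell and 7 were not called (median 0.26). That is 46.7% higher and 30% lower, against 29.1% and 27.6% of all tested genes, so the share of falls lies near that of all genes. Nfatc1 held 694 and 733 CPM at day 4, against 83.8 and 84.5 CPM at day 0 (3.08 ± 0.37, adjusted p = 0.000175), whereas Nfatc2, its relative, fell: it held 24.7 and 24.8 CPM at day 4, against 157 and 140 CPM at day 0 (-2.58 ± 0.26). The MITF and TFE family was also divided, Mitf rising by 0.64 ± 0.12, Tfe3 falling by 1.38 and Tfeb by 1.61 on the log2 scale, with Tfec not called (0.06 ± 0.26). Among AP-1 genes, Fosl2 held 784 and 895 CPM at day 4, against 78.1 and 112 CPM at day 0 (3.15 ± 0.65), Fos rose by 3.47 ± 0.54 and Junb by 1.35 ± 0.16, and Atf3 fell by 3.75. Myc, which drives growth and metabolism, held 127 and 107 CPM at day 4, against 4.13 and 9.22 CPM at day 0 (4.13 ± 0.50). Ppargc1b, a coactivator of mitochondrial genes in osteoclasts, held 58.8 and 74.3 CPM at day 4, against 3.32 and 2.76 CPM at day 0 (4.45 ± 0.56), and its partner Esrra rose by 1.07 ± 0.12. Prdm1, the repressor BLIMP1 that silences anti-osteoclast genes, rose by 1.97 ± 0.35, and Spi1, the myeloid factor PU.1, by 0.74 ± 0.12.

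Of 20 transcription factors that restrain osteoclast formation, 13 fell, 1 rose and 6 were not called (median -1.48). Irf8 held 11.3 and 4.56 CPM at day 4, against 377 and 264 CPM at day 0 (-5.33 ± 0.44). Maf, a bZIP factor, held 12.8 and 7.64 CPM at day 4, against 640 and 672 CPM at day 0 (-6.0 ± 0.57). Both were at under 20 CPM in each day 4 library, with no overlap between the days. Cebpa, a myeloid lineage factor, fell by 3.91, Irf4 by 4.27 and Bcl6, the target of BLIMP1, by 0.99 on the log2 scale. The single rise, Klf4 (0.78 ± 0.26, adjusted p = 0.0276), was not called without any 1 of the 4 libraries (adjusted p 0.0577 to 0.12) nor by limma-voom (adjusted p = 0.0542).

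Several of these factors were highest at the intermediate time, which the comparison of day 4 with day 0 does not show. Fosb averaged 0.566, 242 and 0.257 CPM at days 0, 2 and 4, and the difference between day 4 and day 0 was not called (-1.12 ± 0.44), although it was without day 4 replicate 2 (-1.83, adjusted p = 0.0352). Egr1, an immediate-early factor, averaged 10.9, 1481 and 9.01 CPM (-0.27 ± 0.39), and Id2, an inhibitor of helix-loop-helix factors, 38.6, 373 and 16.9 CPM (-1.19 ± 0.13). Over all 3723 rises, the day 2 mean lay nearer day 0 than day 4 in 2224 genes, nearer day 4 in 584, below day 0 in 761 and above day 4 in 154. Of the 3532 falls, 1919 were nearer day 0, 817 nearer day 4, 596 above day 0 and 200 below day 4. The median gene had covered 25.8% of a rise and 31.1% of a fall by day 2, on a log2 scale. These positions share libraries with the comparison and are given without a test.

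**Figure D3:**
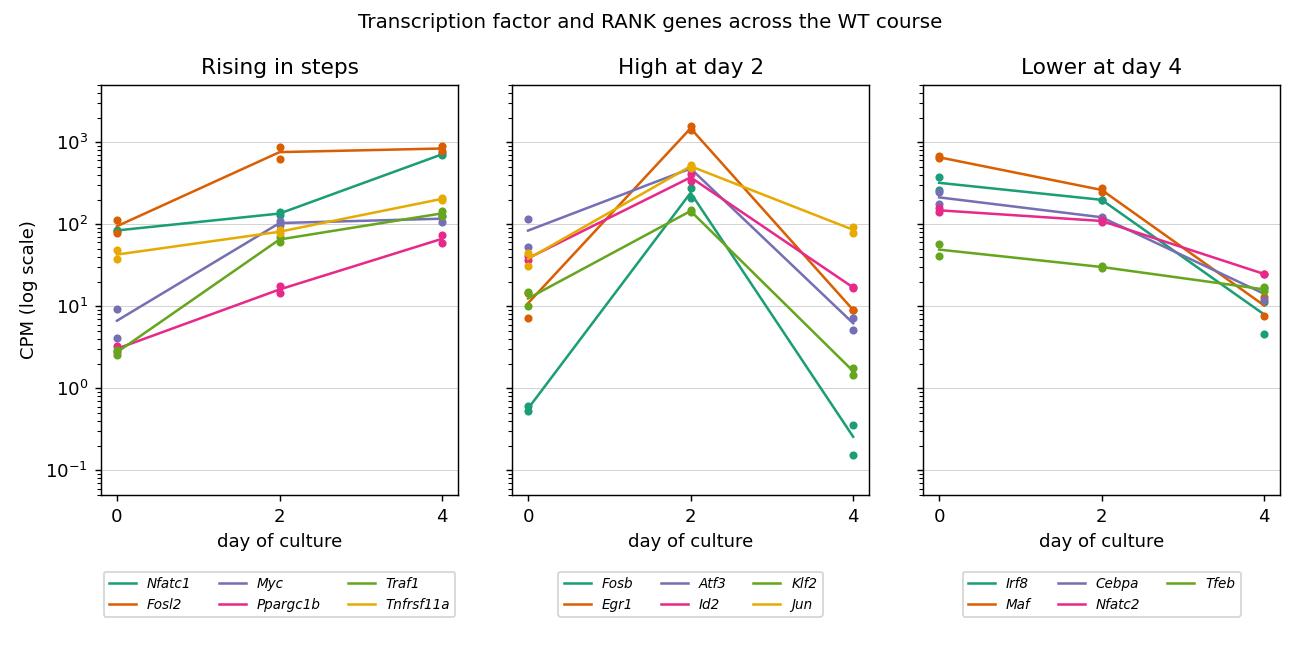
CPM (log scale) of transcription factor and RANK pathway genes at days 0, 2 and 4 of the WT culture; points are libraries and lines join the means of 2. Nfatc1, Ppargc1b and Tnfrsf11a climbed at each step, Fosb and Egr1 were at or below their day 0 mean again at day 4 after 242 and 1481 CPM at day 2, and Irf8 and Maf were lowest at day 4.

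Genes of RANK signalling changed in both directions. Of 31 tested, 11 rose, 9 fell and 11 were not called (median 0.05), shares of 35.5% higher and 29.0% lower that lie near the 29.1% and 27.6% of all tested genes. Tnfrsf11a, which encodes RANK, held 199 and 210 CPM at day 4, against 48.2 and 37.4 CPM at day 0 (2.26 ± 0.13). Traf1, an adaptor induced by NF-kB, held 126 and 146 CPM at day 4, against 2.97 and 2.54 CPM at day 0 (5.62 ± 0.44, adjusted p = 2.51e-05). Traf6, the adaptor that RANK needs, rose by 0.55 ± 0.12 only. Rcan1, a calcineurin regulator and NFAT target, rose by 2.79 ± 0.47 and Nfkbia, the inhibitor of NF-kB, by 1.64 ± 0.11. The falls included kinases and phosphatases of the same pathways: Mapk14, the p38 MAP kinase, held 120 and 114 CPM at day 4, against 334 and 365 CPM at day 0 (-1.58 ± 0.22), Ppp3ca, a catalytic subunit of calcineurin, fell by 1.3, Gab2, a scaffold that binds RANK, by 1.16 and Map3k14, the NF-kB-inducing kinase, by 0.90 on the log2 scale. The other catalytic subunit, Ppp3cb, rose by 0.59 ± 0.08.

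Of 26 ITAM adaptors, paired receptors and proximal kinases, 15 fell, 5 rose and 6 were not called (median -0.96). Both ITAM adaptors fell: Tyrobp, which encodes DAP12, held 177 and 191 CPM at day 4, against 741 and 653 CPM at day 0 (-1.92 ± 0.19), and Fcer1g, the Fc receptor gamma chain, 95.7 and 86.6 CPM at day 4, against 504 and 417 CPM at day 0 (-2.34 ± 0.30). Antibody receptors fell as well. Fcgr3 held 11.2 and 9.84 CPM at day 4, against 1915 and 1741 CPM at day 0 (-7.44 ± 0.31, adjusted p = 1.76e-06), Fcgr4 fell by 4.82 and Fcgr1 by 4.68 on the log2 scale, and Fcgr2b, the inhibitory receptor, which does not use these adaptors, by 4.79. Syk, the kinase that binds phosphorylated ITAMs, fell by 0.97 and Lyn by 1.22. Besides Oscar and Siglec15, the rises were Clec5a, a DAP12-linked lectin (2.19 ± 0.17), Lcp2, the adaptor SLP-76 (1.3 ± 0.13), and Btk, a kinase (0.41 ± 0.10; adjusted p = 0.0731 with the 4 WT libraries fitted alone).

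Of 7 colony-stimulating factor and receptor genes tested, 4 fell, 0 rose and 3 were not called (median -1.66). Csf1r, the M-CSF receptor, held 859 and 976 CPM at day 4, against 7381 and 7026 CPM at day 0. It fell by 2.97 on the log2 scale and remained well above 0. Csf3r, the G-CSF receptor, nearly vanished, with 0.721 and 0.256 CPM at day 4, against 229 and 190 CPM at day 0 (-8.72 ± 0.49, adjusted p = 6.7e-06). The shared beta chains of the GM-CSF receptor, Csf2rb and Csf2rb2, fell by 1.58 and 1.66.

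Of 43 integrin, podosome and sealing zone genes, 16 rose, 16 fell and 11 were not called (median 0.01), that is 37.2% higher and 37.2% lower, against 29.1% and 27.6% of all tested genes. The partners of alpha V did not move together. Itgb3, which pairs with alpha V to bind bone matrix, held 176 and 149 CPM at day 4, against 5.29 and 5.25 CPM at day 0 (4.94 ± 1.01), and Itgav itself 1021 and 1086 CPM at day 4, against 107 and 165 CPM at day 0 (2.95 ± 0.41). Itgb5, another partner of alpha V, held 77.5 and 59.1 CPM at day 4, against 388 and 586 CPM at day 0 (-2.84 ± 0.27), and Itgb1, a further partner, was not called (-0.22 ± 0.14, adjusted p = 0.213). Itga2, a collagen receptor chain, held 17.03 and 26.6 CPM at day 4 and 0 counts at day 0, at least 257-fold higher (adjusted p = 0.00199). The leukocyte integrins Itgam and Itgal fell by 2.54 and 3.90 on the log2 scale. Src, the kinase without which osteoclasts form no ruffled border, held 374 and 441 CPM at day 4, against 16.3 and 23.5 CPM at day 0 (4.35 ± 0.42), while its partner kinase Ptk2b, PYK2, fell by 1.10 and the adaptor Cbl by 1.78. Dock5, a Rac activator of the sealing zone, rose by 3.81 ± 0.17 and Myo1e, a myosin, by 3.41 ± 0.25.

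Macrophage surface genes had the lowest median of the same lists. Of 32 tested, 26 fell, 0 rose and 6 were not called (median -4.58), and their summed level was 4307 and 4243 TPM at day 4, against 80020 and 75070 TPM at day 0. Adgre1, the antigen F4/80, held 81.5 and 72.8 CPM at day 4, against 3015 and 2874 CPM at day 0 (-5.25 ± 0.44). Mertk, which recognises dying cells, held 4.01 and 4.1 CPM at day 4, against 313 and 326 CPM at day 0 (-6.30 ± 0.24, adjusted p = 1.58e-06). Mrc1, the mannose receptor, held 43.4 and 18.5 CPM at day 4, against 1829 and 3188 CPM at day 0 (-6.34 ± 0.56). In each of these genes the day 4 and day 0 libraries were far apart. Mpeg1, a pore-forming protein, fell by 5.85, Stab1, a scavenger receptor, by 5.47, Siglec1 by 5.71 and Clec4a1 by 7.41 on the log2 scale. Against these, Cd68, a lysosomal membrane protein often used as a macrophage marker, held 799 and 935 CPM at day 4, against 925 and 858 CPM at day 0 (-0.04 ± 0.16).

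Genes of innate immunity fell with them. Of 18 complement genes 11 fell and 0 rose (median -1.86), the 3 chains of C1q among them: C1qb held 67.8 and 34.4 CPM at day 4, against 2329 and 2459 CPM at day 0 (-5.55 ± 0.36). Of 31 Toll-like receptor and inflammasome genes 22 fell and 2 rose (median -2.08). Tlr8 held 10.6 and 6.87 CPM at day 4, against 1041 and 934 CPM at day 0 (-6.82 ± 0.45), Tlr7 fell by 5.75, Tlr13 by 4.19 and their transporter Unc93b1 by 4.02 on the log2 scale. Nlrp3, the inflammasome sensor, fell by 3.49, and Gsdmd, the pore former of pyroptosis, rose by 0.86 ± 0.23 (not called without day 0 replicate 2, adjusted p = 0.0783). Of 22 MHC and costimulation genes 17 fell and 0 rose (median -1.87). B2m, the light chain of class I, held 639 and 716 CPM at day 4, against 1915 and 1881 CPM at day 0 (-1.49 ± 0.23), and Ciita, the class II transactivator, 0.154 and 0.154 CPM at day 4, against 47.2 and 10.7 CPM at day 0 (-7.49 ± 1.06; not called by limma-voom, adjusted p = 0.073).

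Of 38 cytokine, chemokine and receptor genes, 20 fell, 6 rose and 12 were not called (median -1.30). The rises included receptors that osteoclasts carry: Ccr1 held 294 and 376 CPM at day 4, against 26.5 and 38.9 CPM at day 0 (3.36 ± 0.74), Ccr3 rose by 2.85 ± 0.65, and the chemokine Ccl9 by 1.87 ± 0.23. Il10ra, the IL-10 receptor, held 9.37 and 5.18 CPM at day 4, against 478 and 442 CPM at day 0 (-5.98 ± 0.47). Among 31 interferon-induced genes, 22.6% were called lower, against 27.6% of all tested genes. Interferon-induced genes gave no stable count: 7 of 31 were called lower and 0 higher (median -0.77), but 2 without either day 0 library, 0 without day 4 replicate 1 and 4 without day 4 replicate 2.

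Most lysosomal genes fell while cathepsin K rose. Of 47 lysosomal hydrolases and membrane proteins, 35 fell, 4 rose and 8 were not called (median -0.90), and their sum was 24800 and 27030 TPM at day 4, against 60590 and 53530 TPM at day 0. Ctsb, cathepsin B, held 2354 and 2209 CPM at day 4, against 17170 and 16580 CPM at day 0 (-2.89 ± 0.21). Ctsd, cathepsin D, fell by 2.96 on the log2 scale, Lamp1 by 2.76 and Ctsh by 3.91, and Lgmn, legumain, fell by 4.08. Arsb, a sulfatase that acts on glycosaminoglycans, went the other way, with 441 and 591 CPM at day 4, against 21.2 and 56.0 CPM at day 0 (3.74 ± 0.53), and so did Smpd1, acid sphingomyelinase (1.28 ± 0.18). Of 24 Rab and trafficking genes 13 fell and 4 rose (median -0.75). Among the rises, Snx10, a sorting nexin mutated in osteopetrosis, held 520 and 611 CPM at day 4, against 116 and 104 CPM at day 0 (2.36 ± 0.21). Rab38 rose by 4.41 ± 0.94, and Arl8b, a small GTPase of lysosomes, by 1.16 ± 0.15. Rab7b fell by 2.62 and Rab3d, a secretory Rab, by 1.79.

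**Figure D4:**
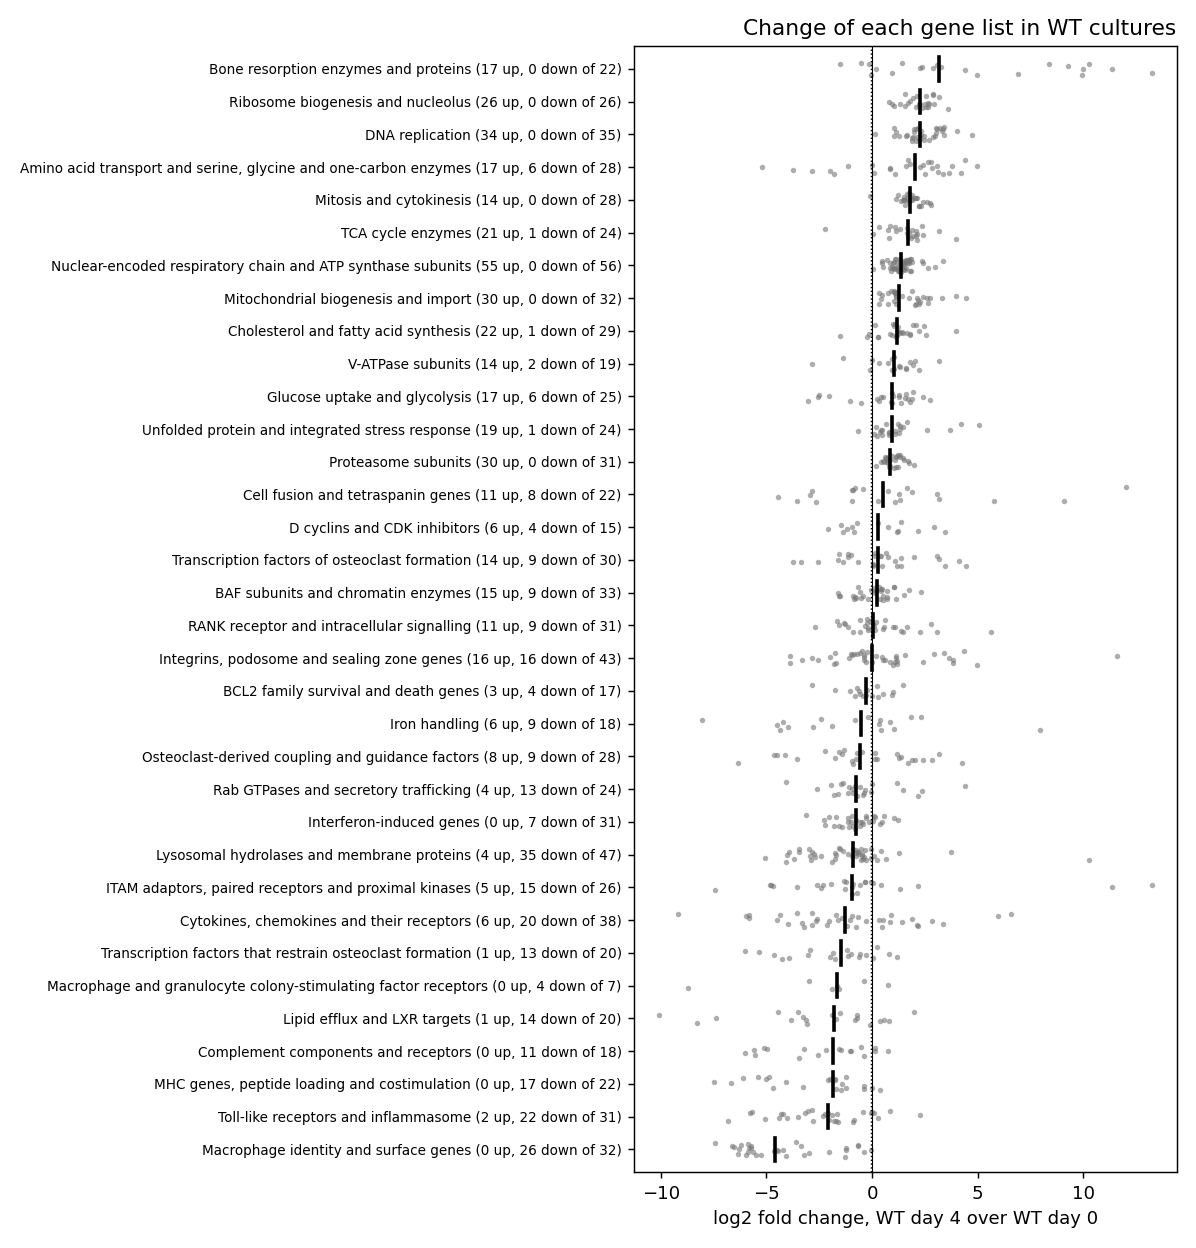
Log2 fold change, WT day 4 over WT day 0, of the tested members of 34 gene lists (grey points), with the median of each list (black bar), the median of all tested genes (dotted line) and the counts called higher and lower. Lists run from resorption at the top, with a median of 3.16, to macrophage surface genes at the bottom, with a median of -4.58.

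Nuclear genes for mitochondrial proteins rose almost without exception. Of 56 nuclear-encoded respiratory chain and ATP synthase subunits, 55 rose, 0 fell and 1 was not called (median 1.35), and their sum was 33170 and 35710 TPM at day 4, against 10610 and 12400 TPM at day 0. Atp5b, the catalytic beta subunit of ATP synthase, held 2009 and 2179 CPM at day 4, against 387 and 434 CPM at day 0 (2.35 ± 0.16). Cycs, cytochrome c, rose by 3.34 ± 0.20. Of 32 biogenesis and import genes 30 rose and 0 fell (median 1.27), with Tomm40, the import pore, at 2.62 ± 0.26 and Hspa9, the matrix chaperone, at 2.76 ± 0.26. Of 13 RNAs of the mitochondrial genome itself, 5 were called higher and 0 lower (median 0.35), and 2 to 5 without 1 library. In this list 6 RNAs were under 5 CPM in all 4 libraries, and COX3 and ND3 among them were 2 of the 5 calls, while COX1 held 9055 and 9777 CPM at day 4, against 9334 and 11610 CPM at day 0. ND3 was not called without any 1 of the 4 libraries (adjusted p 0.0557 to 0.184), nor COX3 without day 4 replicate 2 (adjusted p = 0.0877). How reads of these low RNAs were assigned was not tested. The 13 RNAs together took 2.62% and 2.87% of counts at day 4, against 1.67% and 2.21% at day 0.

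Of 24 TCA cycle enzymes 21 rose and 1 fell (median 1.72). Idh3a, a subunit of the NAD-dependent isocitrate dehydrogenase of the cycle, held 304 and 338 CPM at day 4, against 20.7 and 20.2 CPM at day 0 (3.97 ± 0.34). Mdh2, malate dehydrogenase, rose by 3.18 ± 0.25 and Pdhb, of pyruvate dehydrogenase, by 2.38 ± 0.16. The exception was the cytosolic, NADP-dependent enzyme Idh1, with 117 and 104 CPM at day 4, against 600 and 421 CPM at day 0 (-2.21 ± 0.23). Of 25 glucose uptake and glycolysis genes 17 rose and 6 fell (median 0.95). Enzymes of the pathway that rose included Pfkp (2.41 ± 0.29), Ldha (1.93 ± 0.22) and Gapdh (1.81 ± 0.21). Gapdh, often taken as a constant reference, held 1414 and 1424 CPM at day 4, against 334 and 477 CPM at day 0. The falls included the enzymes Hk3, a hexokinase (-1.05 ± 0.23), and Pfkm (-0.54 ± 0.15; adjusted p = 0.101 without day 0 replicate 2 and 0.0802 without day 4 replicate 1), the regulators that set fructose 2,6-bisphosphate, Pfkfb4 (-2.05 ± 0.22) and Pfkfb3 (-2.55 ± 0.60; adjusted p = 0.0502 without day 4 replicate 2), and the transporter Slc2a3 (-3.04 ± 0.33).

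Serine and one-carbon enzymes rose: Shmt2, which makes glycine in mitochondria, held 361 and 305 CPM at day 4, against 15.8 and 32.6 CPM at day 0 (3.78 ± 0.42), and Mthfd1l rose by 2.51 ± 0.30. In this list of 28, 17 rose and 6 fell (median 2.04), the falls including Glul, glutamine synthetase (-2.84 ± 0.16), and the amino acid transporter Slc43a2 (-3.73 ± 0.16). Of 29 cholesterol and fatty acid synthesis genes 22 rose and 1 fell (median 1.20). Fdps, farnesyl diphosphate synthase, which nitrogen-containing bisphosphonate drugs inhibit in osteoclasts, held 107 and 100 CPM at day 4, against 15.2 and 19.7 CPM at day 0 (2.57 ± 0.20).

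Transcripts of lipid efflux genes mostly fell, whereas those of lipid synthesis genes mostly rose. Of 20 efflux and LXR target genes 14 fell and 1 rose (median -1.79). Abca1, the cholesterol exporter, held 208 and 165 CPM at day 4, against 1651 and 1645 CPM at day 0 (-3.14 ± 0.18), and Mylip, a ubiquitin ligase, fell by 3.49 on the log2 scale. Apoe held 60.4 and 56.9 CPM at day 4, against 15670 and 3913 CPM at day 0 (-7.38 ± 0.82). The sums of the whole list were 1823 and 1726 TPM at day 4, against 46660 TPM in day 0 replicate 1 and 14510 TPM in day 0 replicate 2. The one rise, Lpcat3, was not called without day 0 replicate 2 or day 4 replicate 1 (0.39 ± 0.13; adjusted p = 0.128 and 0.169). Of 18 iron genes 9 fell and 6 rose (median -0.51). That is 50% lower and 33.3% higher, against 27.6% and 29.1% of all tested genes, so the share of rises lies near that of all genes. Slc40a1, the iron exporter ferroportin, held 3.96 and 5.18 CPM at day 4, against 1426 and 996 CPM at day 0 (-8.05 ± 0.65), and the storage chains Fth1 and Ftl1 fell by 2.81 and 1.88. The rises included the reductase Steap3 (1.84 ± 0.29) and the transporter Slc11a2 (0.82 ± 0.16), while the related transporter Slc11a1 held 48.3 and 35.9 CPM at day 4, against 710 and 606 CPM at day 0 (-3.97 ± 0.26).

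**Figure D5:**
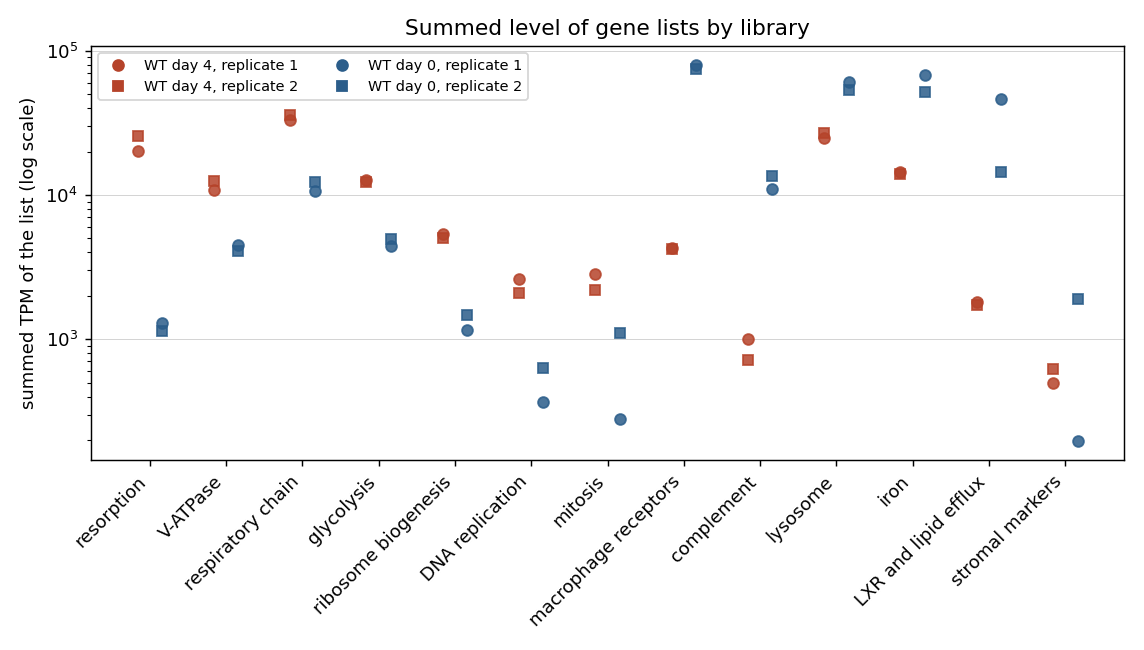
Summed TPM of 13 gene lists (log scale) in the 2 WT day 4 libraries (left of each pair) and the 2 WT day 0 libraries, circles for replicate 1 and squares for replicate 2. The day 0 libraries differ most in stromal markers (196 and 1887 TPM), mitosis (281 and 1112 TPM) and lipid efflux (46660 and 14510 TPM).

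Genes of ribosome assembly and DNA replication rose. Of 26 ribosome biogenesis genes all 26 rose (median 2.26), with Dkc1, which modifies ribosomal RNA, at 136 and 115 CPM at day 4, against 10.01 and 10.6 CPM at day 0 (3.61 ± 0.33). Of 35 DNA replication genes 34 rose and 0 fell (median 2.25). Mcm6, of the replicative helicase, held 366 and 297 CPM at day 4, against 33.3 and 50.2 CPM at day 0 (2.99 ± 0.28). The day 0 libraries differed in mitosis genes, which summed to 2831 and 2178 TPM at day 4, against 281 TPM in day 0 replicate 1 and 1112 TPM in day 0 replicate 2. Of these genes 14 of 28 were called higher and 0 lower (median 1.78), 12 without day 0 replicate 1 (median 1.08), 27 without day 0 replicate 2 (median 3.5), 4 without day 4 replicate 1 and 9 without day 4 replicate 2. Ccnb1, cyclin B1, held 162 and 130 CPM at day 4, against 8.96 and 35.3 CPM at day 0 (2.72 ± 0.66). Stromal markers, of which 1 of 15 tested was called higher and 0 lower, differed between the same day 0 libraries, and their part in this was not tested. Of 15 cyclins, kinases and inhibitors 6 rose and 4 fell (median 0.30), with entry genes and brakes on both sides. That is 40% higher and 26.7% lower, against 29.1% and 27.6% of all tested genes. Cdk6 and Ccnd1, of entry into the cycle, rose by 3.43 ± 0.29 and 2.92 ± 0.58, and Ccnd3, another cyclin of entry, fell by 0.70 on the log2 scale (adjusted p = 0.0977 without day 4 replicate 2). The brakes Rb1 and Cdkn1b fell by 2.09 and 0.84, and Rbl1, a relative of Rb1, rose by 1.19 ± 0.24.

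Of 31 proteasome subunits 30 rose and 0 fell (median 0.87), such as Psmb5, a catalytic subunit (1.73 ± 0.15). Of 24 genes of the unfolded protein and integrated stress responses 19 rose and 1 fell (median 0.94). Atf4, the factor at the centre of the integrated stress response, held 433 and 435 CPM at day 4, against 72.0 and 70.9 CPM at day 0 (2.60 ± 0.20), and Hspa5, the chaperone BiP, rose by 1.48 ± 0.13. The fall was Ern1, the sensor IRE1 (-0.67 ± 0.15). Of 17 BCL2 family genes 3 rose and 4 fell (median -0.31). That is 17.6% higher and 23.5% lower, against 29.1% and 27.6% of all tested genes. Bak1, a pore former, rose by 1.45 ± 0.12, and Bmf, a death-promoting BH3 protein, fell by 2.85.

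Among 28 genes of factors by which osteoclasts signal to other bone cells, 8 rose, 9 fell and 11 were not called. Their shares, 28.6% higher and 32.1% lower, lie near the 29.1% and 27.6% of all tested genes. The median of -0.59 became 0.69 without day 0 replicate 2. Sphk1, which makes sphingosine 1-phosphate, held 9.31 and 12.5 CPM at day 4, against 0.523 and 0.608 CPM at day 0 (4.25 ± 0.68), and Nrp2, a semaphorin receptor, rose by 1.70 ± 0.12 while Nrp1 fell by 4.11. Notch1 held 11.9 and 10.4 CPM at day 4, against 285 and 273 CPM at day 0 (-4.65 ± 0.16, adjusted p = 1.54e-06), and Notch2 fell by 2.21. Of 33 BAF subunits and chromatin enzymes 15 rose and 9 fell (median 0.22). That is 45.5% higher and 27.3% lower, against 29.1% and 27.6% of all tested genes, so the share of falls lies near that of all genes. Dnmt3a, a DNA methyltransferase, held 476 and 607 CPM at day 4, against 130 and 90.6 CPM at day 0 (2.30 ± 0.18). Arid1a, the BAF subunit that the other arm of the series deletes, held 164 and 135 CPM at day 4, against 242 and 197 CPM at day 0 (-0.55 ± 0.14, adjusted p = 0.00829). In KO cultures it held 84.7 and 98.0 CPM at day 4 and 94.6 and 104 CPM at day 0. The WT fall was not called without day 4 replicate 2 (-0.42, adjusted p = 0.0691) or with the 4 WT libraries fitted alone (adjusted p = 0.0527). Its relative Arid1b fell by 0.85 and the ATPase Smarca2 by 1.57 on the log2 scale.

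Beyond these lists, the largest rises with a mean of at least 5 CPM included genes with no counts at day 0. Scin, an actin-severing protein of podosomes, held 158 and 221 CPM at day 4 and 0 counts at day 0, at least 2230-fold higher (adjusted p = 0.000688; not called by limma-voom, adjusted p = 0.107). Cyp2s1, a cytochrome P450, was at least 1150-fold higher (not called by limma-voom, adjusted p = 0.0609), Akr1c18, a steroid dehydrogenase, at least 408-fold and Mt3, a metallothionein, at least 404-fold higher. Nyap2, Serpind1, Rufy4, Mst1r and Aqp9 had 1 or 2 counts in all at day 0, and their ratios were 905 to 2250, with 95% intervals between 162 and 89000. Mst1r, the receptor tyrosine kinase RON, held 49.97 and 84.0 CPM at day 4, against 0.116 and 0 CPM at day 0, a ratio of 1180 (95% interval 327 to 9770). Aqp9, a glycerol and water channel, held 25.0 and 26.3 CPM at day 4, against 0.0582 and 0 CPM at day 0.

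Among the largest falls, Slco2b1, an organic anion transporter, had 0 counts at day 4, against 74.1 and 184 CPM at day 0, at least 1690-fold lower (adjusted p = 0.000373; not called by limma-voom, adjusted p = 0.0641). Selenop, the selenium carrier of plasma, held 42.7 and 31.9 CPM at day 4, against 10060 and 11030 CPM at day 0 (-8.14 ± 0.51). Gpr34, a lysophospholipid receptor, fell by 8.99, Lyl1, a helix-loop-helix factor, by 8.1, Abcd2, a peroxisomal transporter, by 8.85 and Gprc5c by 9.05 on the log2 scale. Cd5l, a secreted macrophage protein, held 0.566 and 1.28 CPM at day 4, against 38.7 and 381 CPM at day 0 (-7.82 ± 1.95); its day 0 libraries differed widely, and it was not called without day 4 replicate 1 (adjusted p = 0.0671) or replicate 2 (adjusted p = 0.0543), nor by limma-voom (adjusted p = 0.166). Among the 10 genes with the most counts at day 4 were Ctsk, Mmp9 and Vim, the intermediate filament vimentin, which held 4708 and 4566 CPM at day 4, against 598 and 618 CPM at day 0 (2.93 ± 0.23).

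To see where the WT change was its own, it was compared with the change in Arid1a KO cultures over the same days. The difference of the changes was called for 1094 of 12774 genes (8.56%), 360 more positive and 734 more negative in WT. This count changed when single libraries were left out, which leaves 1 library in a group. Why it changed was not tested. The change was smallest without replicate 2 of WT day 0 or replicate 2 of KO day 4. Leaving out replicate 2 or replicate 1 of WT day 4 gave 145 or 381 genes, and leaving out replicate 1 of WT day 0 gave 580. With replicate 1 or replicate 2 of KO day 0 left out it was 146 or 226, and with replicate 1 of KO day 4 left out 3014. Of 32 macrophage surface genes the difference was called in 18, all more negative in WT (5 to 22 with 1 of the 8 libraries left out). Of 29 sterol genes it was called in 15, all more positive in WT (4 to 22), of 56 respiratory chain subunits in 22 (1 to 37) and of 22 resorption genes in 4 (1 to 11). Of 26 ribosome biogenesis and 31 proteasome genes it was called in 0 (0 to 13 and 0 to 3).

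Some genes kept this call whichever of the 8 libraries was left out. Mertk held 4.01 and 4.1 CPM at day 4 against 313 and 326 CPM at day 0 in WT, and 32.2 and 51.5 CPM at day 4 against 257 and 233 CPM at day 0 in KO, a difference of changes of -3.75 ± 0.28 (adjusted p = 0.00214). Fcgr3 held 96.7 and 162 CPM at day 4 against 2125 and 2315 CPM at day 0 in KO, a difference of -3.34 ± 0.31. The Cd36 difference was -3.88 ± 0.36. Snx10 held 184 and 119 CPM at day 4 against 114 and 118 CPM at day 0 in KO, so that the WT rise exceeded the KO change by 1.97 ± 0.29 (adjusted p = 0.0094). Lyz2 differed by -5.94 ± 0.35, but in KO it was low at both days, with 64.1 and 42.3 CPM at day 4 and 36.4 and 49.2 CPM at day 0.

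Among called genes averaging 5 CPM or more in the 8 libraries, the 6 most negative and 6 most positive differences were less secure, each being lost without at least 1 library. Of the negative ones, Chst10, a sulfotransferase, held 0.309 and 0.41 CPM at WT day 4 against 10.3 and 0.663 CPM at WT day 0, and 62.6 and 71.0 CPM at KO day 4 against 3.56 and 3.03 CPM at KO day 0 (-8.24 ± 1.46, adjusted p = 0.0169). Its WT fall was not called without WT day 0 replicate 1 (-0.89, adjusted p = 0.219) or either WT day 4 library (adjusted p = 0.0907 and 0.0768), nor in the limma fits. Fpr2, a formyl peptide receptor, Mcemp1, Gpr162, Ly6i and Dnase1l3, a nuclease, differed by -7.60 to -6.51. On the positive side F2r, the thrombin receptor, held 19.1 and 35.5 CPM at WT day 4 against 0.233 and 2.71 CPM at WT day 0, and 6.2 and 0.444 CPM at KO day 4 against 17.7 and 31.8 CPM at KO day 0 (7.08 ± 1.64, adjusted p = 0.0387). Its WT rise was not called without WT day 0 replicate 1 (3.31, adjusted p = 0.0712) or WT day 4 replicate 2 (3.68, adjusted p = 0.0656). Slc6a17, Kazn, Bdh1, Pheta1 and Abtb2 differed by 3.33 to 6.27; Bdh1, a ketone body enzyme, held 108 and 159 CPM at WT day 4 against 0.931 and 0.608 CPM at WT day 0.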

How the data were processed

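RNA was sequenced from 2 libraries of each genotype and day. Per the submitters' processing notes the tools named for the series include Trim Galore 0.6.1, STAR 2.7.3a and RSEM 1.3.1, and both mm9 and mm10 are named; which gene models were used, and whether counting used strand, is not given in the sources used here. The authors deposited expected counts per gene, which were rounded to whole numbers, and TPM values per gene; no other column was used. The other 25 samples of the series were not analysed here.

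Groups were taken from the labels. Genes were kept with filterByExpr of edgeR 4.0.16 (minimum count 10), libraries were scaled by TMM, and edgeR's quasi-likelihood test with robust dispersion (R 4.3.3) was fitted to 1 mean for each of the 6 groups. The contrasts were WT day 4 minus WT day 0, and that change minus the KO change; p-values are two-sided and Benjamini-Hochberg adjusted over 12774 genes, called under 0.05. The SE is the log2 fold change over the square root of F. Against 0 counts a fold is a lower bound over a floor of 3 counts for the group, and 95% intervals of ratios are exact; both cover counting error only. In data simulated for WT day 4 against day 0 over 12774 genes, 20 of 100 genes changed 2-fold and 74 of 100 changed 4-fold were called, with 3 false calls.

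Members and gene lists were chosen with earlier results of these data known. Named genes are members of the osteoclast, signalling, integrin and macrophage surface lists, up to 8 members by smallest adjusted p of every other list and those that moved against its majority, the 15 largest rises and falls with a mean of at least 5 CPM, the 10 most abundant genes a day, the 6 most positive and 6 most negative called differences from KO with that mean over 8 libraries, and Arid1a; 5 further differences, of Mertk, Fcgr3, Cd36, Lyz2 and Snx10, were chosen after their values were seen. Alternatives used DESeq2 1.42.0, limma 3.58.1 (voom, and log2(TPM + 1) or + 0.1), other filters and scalings, fewer libraries and a replicate block; leaving out KO libraries was added after seeing the data. Of the gene names, 26 had been turned into dates by a spreadsheet and are not named; some other results are not reported here. Promoter windows came from RefSeq (GRCm38.p6). Of the 23170 gene names listed, 21597 matched a RefSeq gene, which is not a count of genes with a promoter window.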

Additional observations from a re-analysis of the deposited data

Results flagged for a closer look

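The change over the WT course differed from that over the KO course, by a test of the difference itself, in 1094 genes. Among called genes averaging 5 CPM or more in the 8 libraries, the 6 most negative differences on the log2 scale were Chst10 at -8.24, Fpr2 at -7.60, Mcemp1 at -7.26, Gpr162 at -6.98, Ly6i at -6.66 and Dnase1l3 at -6.51. KO day 4 replicate 1 and replicate 2 were far apart in most of these: Gpr162 held 14.1 and 87.0 CPM, Mcemp1 5.38 and 36.8 CPM, and Fpr2 7.53 and 29.6 CPM. Mcemp1 and Ly6i had no called change in WT. The 6 most positive were F2r at 7.08, Slc6a17 at 6.27, Kazn at 4.55, Bdh1 at 4.53, Pheta1 at 3.37 and Abtb2 at 3.33. Each of these 12 was lost without at least 1 of the 8 libraries. Cd36 at -3.88, Mertk at -3.75, Fcgr3 at -3.34 and Snx10 at 1.97 stayed called whichever 1 of the 8 libraries was left out. So did Lyz2 at -5.94, but in KO it was already low at day 0, as given above, so its KO course had little to lose.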

How the results depend on the processing

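Over the other fits, scalings, filters and libraries left out, 5877 to 7570 genes were called between WT day 4 and WT day 0; requiring a 2-fold change gave 4522, of which 2287 were higher and 2235 lower. Leaving out 1 of the 4 libraries gave 5877 to 6688 calls. On the TPM scale 1 call was opposite, and 59.9% of the calls were higher, against 51.3% in the counts. The replicate block gave 7570 calls. Deviations of same-numbered libraries correlated at r = 0.114 over 1 pair of groups, so the numbers are not taken as pairs. The difference from KO was called in 2079 genes by DESeq2 and in 1737 with the replicate block, and in 145 to 3014 with 1 of 8 libraries left out; the cause was not tested. No named gene that was called turned its direction. Of those not called, on the TPM scale with 1 or 0.1 added, Cd68 was 0.11, Ostm1 0.06 and Plekhm1 0.12. With 1 library left out, Cd68 lay between -0.16 and 0.07, Ostm1 between -0.36 and 0.14, Plekhm1 between -0.23 and 0.15, Egr1 between -0.69 and 0.29 and Cx3cr1 between -1.33 and 0.49. List medians lay between -0.03 and 0.17 for RANK signalling, -0.23 and 1.12 for cyclins and inhibitors, -0.76 and 0.69 for coupling factors and -1.3 and 1.84 for stromal markers. The stromal median was 0.16 with limma-voom, and 0.22 and 0.33 on the TPM scale with 1 and 0.1 added. In the simulated data 20 of 100 genes changed 2-fold were called. Far fewer genes were changed there than the 56.8% called here, so that share does not carry over to these data.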
